A study of Homo sapiens with 22 samples.

Results

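GDF15, STC2, ADM2, INHBE and THBS1 encode secreted proteins that many cell types release under stress. These 5 genes, of the 20411 genes in each table, were chosen by their measured values: they were far higher with FP54 in NB4 cells and mostly lower in MOLM-13 cells. Their levels and their differences between treatments are therefore given as descriptions, without a test. In NB4 cells all 5 were higher in every FP54 library than in every DMSO library. In MOLM-13 cells, 4 of the 5 were lower in every FP54 library than in every DMSO library, and the levels of THBS1 overlapped. Of all genes with a read in the line, 42.7% were higher in this way in NB4 and 13.8% lower in MOLM-13 cells.

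FP54 is a degrader of FTO, the RNA demethylase that removes m6A, and it recruits the VHL ubiquitin ligase to FTO. MOLM-13 is a human acute myeloid leukemia line with an MLL rearrangement, and NB4 is a human acute promyelocytic leukemia line. The labels give both as wild type and derived from blood. Cells of each line received FP54 at 2 μM, or its solvent DMSO as the control, for 48 hours, and poly(A) RNA was sequenced in 3 libraries per treatment and line, 12 libraries in all of the 22 samples in the labels. The labels do not say whether the 3 libraries came from separate cultures, so the spread between them may be technical. FTO protein was the target, so FTO mRNA is no check of the treatment. It lay between 0.897 and 1.13 RPKM (reads per kilobase of gene, scaled to the reads on genes in each library) in the 6 MOLM-13 libraries. In NB4 cells it lay between 2.52 and 2.86 RPKM with DMSO and between 1.95 and 2.11 RPKM with FP54, lower without overlap (log2 fold change -0.41 ± 0.11, SE, adjusted p = 0.0119) but short of the 0.5 that a call below needs.

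Cells limit protein synthesis when amino acids run short or unfolded proteins accumulate, and this integrated stress response raises the translation of the transcription factor ATF4. ATF4 and its partners then switch on genes for amino acid supply together with genes for secreted factors. GDF15 is a distant member of the TGF-β family that acts on appetite through the brainstem receptor GFRAL with RET. INHBE encodes the activin βE subunit, made mostly by liver. STC2 is a glycoprotein hormone that inhibits the protease PAPPA and so keeps insulin-like growth factors bound. ADM2, also called intermedin, is a peptide of the calcitonin family that dilates vessels. THBS1, thrombospondin 1, is a large matrix glycoprotein held in platelet granules that activates latent TGF-β and binds CD47 and CD36. GDF15 and THBS1 also answer to p53, and THBS1 to TGF-β itself.

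In hg38, GDF15 (ENSG00000130513) lies on the plus strand at chr19:18374731-18389176, and STC2 (ENSG00000113739) on the minus strand at chr5:173314723-173328447. ADM2 (ENSG00000128165) lies on the plus strand at chr22:50481543-50486440, where it overlaps the minus-strand gene SBF1. INHBE (ENSG00000139269) lies on the plus strand at chr12:57452323-57459280, and THBS1 (ENSG00000137801) on the plus strand at chr15:39581079-39599466, where it overlaps the minus-strand gene FSIP1. The library kit keeps strand, but the strand setting of the counting is not given in the sources used here. SBF1 lay between 2.60 and 3.95 RPKM over all MOLM-13 libraries and between 8.27 and 11.3 RPKM over all NB4 libraries, with no call in either line. FSIP1 did not exceed 0.273 RPKM in any library.

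Promoter sequence is shown because all 5 genes differed in 1 direction in NB4 cells, and a reader can see from it which basal elements their starts share. Promoters came from RefSeq (GRCh38.p14), with 250 bases before and 50 after the start, and 4 of the 5 genes matched. The sequences read 5′ to 3′ on the strand of the gene, and capitals mark a GC box with the letters GGGCGG, or else a CCAAT box, or a TATA box with the letters TATAAA, on either strand. For GDF15 only 2 windows of 30 bases are shown, at chr19:18386036-18386065 and chr19:18386126-18386155, because a longer annotated transcript covers this stretch. The STC2 window is chr5:173328448-173328647, the ADM2 window chr22:50481343-50481542 and the THBS1 window chr15:39580879-39581078.
GDF15 distal: accCCGCCCagctgtggtcATTGGagtgtt
GDF15 proximal: gacTATAAAggccggtccggcagcatctgg
STC2: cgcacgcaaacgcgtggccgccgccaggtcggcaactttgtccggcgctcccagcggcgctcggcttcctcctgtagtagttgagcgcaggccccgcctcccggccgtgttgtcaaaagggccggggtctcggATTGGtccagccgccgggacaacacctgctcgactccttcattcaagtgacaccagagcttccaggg
ADM2: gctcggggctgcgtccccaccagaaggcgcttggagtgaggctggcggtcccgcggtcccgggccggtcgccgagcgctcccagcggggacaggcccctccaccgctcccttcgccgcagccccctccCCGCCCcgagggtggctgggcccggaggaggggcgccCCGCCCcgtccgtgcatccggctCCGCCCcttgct
THBS1: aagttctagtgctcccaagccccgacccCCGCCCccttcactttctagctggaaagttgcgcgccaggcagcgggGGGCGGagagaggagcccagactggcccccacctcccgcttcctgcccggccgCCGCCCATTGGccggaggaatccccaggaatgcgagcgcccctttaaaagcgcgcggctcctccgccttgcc

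The 4 promoters were built differently. Elements were counted over the full windows, of which only parts are shown. The GC box occurred 2 times in GDF15, 3 times in ADM2, 4 times in THBS1 and 0 times in STC2, and 44.6% of all 27305 promoters held it. A THBS1 box at -223 to -218 lies before the stretch shown. A CCAAT box occurred in GDF15, STC2 and THBS1 and in 35.7% of all promoters. Only GDF15 held TATAAA, as did 12% of all promoters. The composite element of ATF4 and C/EBP proteins (TGATGNAA), the cyclic AMP response element (TGACGTCA) and the AP-1 element (TGACTCA) occurred in 0 of the 4 windows, against 3.67%, 1.98% and 4.92% of all promoters. The core of the antioxidant response element (TGACNNNGC) occurred 1 time, in STC2, and in 13.6% of all promoters. The absence concerns these windows alone, and elements further away were not searched. Over the 250 upstream bases, G and C made up 58.4% in GDF15, 63.6% in STC2, 78.8% in ADM2 and 69.6% in THBS1, against a median of 58.0% over all promoters.

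The number of reads on genes ranged from 16313513 to 17362484 in the MOLM-13 DMSO libraries, from 5836598 to 19207550 in the MOLM-13 FP54 libraries, from 20662838 to 22349890 in the NB4 DMSO libraries and from 10602358 to 13079356 in the NB4 FP54 libraries, with FP54 replicate 2 of MOLM-13 the shallowest. Of 12 markers set against the line labels, HOXA9 was at 21.3 ± 2.1 RPKM in MOLM-13 and 0.234 ± 0.080 RPKM in NB4 DMSO libraries (SD, n = 3), and MPO, which promyelocytes express strongly, at 16.1 ± 2.9 and 2170 ± 119 RPKM, as the labels would have them. HOXA10, at 7.30 ± 1.01 and 13.2 ± 0.9 RPKM, and the granule protease gene CTSG, at 116 ± 22 and 58.5 ± 8.5 RPKM, ran the other way. The NB4 FP54 libraries stood apart in low-level signal. Mean RPKM over 416 olfactory receptor genes, which these cells do not use, was 0.0017 to 0.0037 in NB4 DMSO and 0.0496 to 0.0549 in NB4 FP54 libraries, and 0.0039 to 0.0083 over the MOLM-13 libraries. Every FP54 library was above every DMSO library in 42.7% of the 17790 genes with a read in any NB4 library, and below in 13.8% of the 16288 genes with a read in any MOLM-13 library. These shares are the background for the counts of 5 and 4 members, from which nothing is read, because the genes were chosen on the same contrasts.

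GDF15 was undetected in DMSO-treated NB4 cells. It had 0 reads in each of the 3 DMSO libraries, where 3 reads would have given at most 0.070 RPKM. In the FP54 libraries it stood at 2.71, 2.64 and 2.60 RPKM, from 60 to 71 reads. Against the highest floor of 3 reads in a DMSO library, GDF15 was at least 38.1-fold higher with FP54. In bulk RNA, more cells with the transcript and more transcript per cell cannot be told apart.

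In MOLM-13 cells, GDF15 differed the other way. The DMSO libraries gave 9.41, 10.9 and 9.75 RPKM, and the FP54 libraries 2.62, 1.40 and 2.59 RPKM. The mean was 4.55-fold lower with FP54, at 2.20 ± 0.70 against 10.0 ± 0.8 RPKM (SD, n = 3), and the treatments did not overlap. The low value of FP54 replicate 2 rested on 17 reads, with a 95% exact Poisson interval from 0.814 to 2.24 RPKM that covers counting error only. With FP54 the lines ended at like levels, 2.65 ± 0.06 RPKM in NB4 and 2.20 ± 0.70 RPKM in MOLM-13, after starting far apart. The tables were normalized separately, so levels in the 2 lines are set side by side without a test.

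INHBE differed in the same directions as GDF15. The NB4 DMSO libraries held 0.0954, 0.0925 and 0.0147 RPKM, which is between 1 and 6 reads. The FP54 libraries held 3.72, 4.63 and 3.72 RPKM. From 13 reads over the DMSO libraries and 432 over the FP54 libraries, the ratio of reads scaled to library totals was 60.5, with a 95% exact counting interval from 35.0 to 115. This interval covers counting error only, not the spread between libraries or the choice of the gene.

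In MOLM-13 cells, INHBE was at 2.28, 1.43 and 2.37 RPKM in DMSO and at 0.411, 0.957 and 0.737 RPKM in FP54 libraries, 2.89-fold lower on average and without overlap. Those FP54 libraries held only 17 to 27 reads each. INHBE differed from GDF15 in that its level in FP54-treated NB4 cells (4.02 ± 0.52 RPKM) was above its level in DMSO-treated MOLM-13 cells (2.03 ± 0.52 RPKM).

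STC2 was the most abundant of the 5 in DMSO-treated MOLM-13 cells, at 14.5, 12.5 and 18.3 RPKM, and stood at 2.39, 4.07 and 3.76 RPKM with FP54. The means differed 4.43-fold, without overlap. In NB4 cells, STC2 was at 0.937, 0.797 and 0.486 RPKM with DMSO and at 13.5, 13.9 and 14.0 RPKM with FP54, which is 18.7-fold higher. FP54-treated NB4 cells and DMSO-treated MOLM-13 cells then overlapped in level, at 13.8 ± 0.3 and 15.1 ± 2.9 RPKM. FP54-treated MOLM-13 cells were at 3.41 ± 0.89 RPKM, so the order of the lines was exchanged between DMSO and FP54. The same held for ADM2 and INHBE.

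ADM2 was at 0.248, 0.197 and 0.125 RPKM in NB4 DMSO libraries, from 12 to 22 reads, and at 4.00, 4.39 and 3.82 RPKM with FP54, 21.4-fold higher and without overlap. In MOLM-13 cells it was at 3.62, 2.53 and 3.88 RPKM in DMSO and at 0.911, 1.04 and 1.14 RPKM in FP54 libraries, 3.24-fold lower. DMSO-treated MOLM-13 cells (3.35 ± 0.72 RPKM) and FP54-treated NB4 cells (4.07 ± 0.29 RPKM) again overlapped in range.

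THBS1 had the highest level of the 5 in FP54-treated NB4 cells and was the exception in MOLM-13 cells. NB4 libraries went from 1.21, 0.907 and 0.772 RPKM in DMSO to 50.9, 52.5 and 48.3 RPKM in FP54, which is 52.5-fold and rests on 4938 to 5781 reads per FP54 library. Among all genes of an NB4 library by mean RPKM, THBS1 was at percentile 53.1 with DMSO and 96.6 with FP54.

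In MOLM-13 cells, THBS1 was at 0.686, 1.73 and 0.774 RPKM in DMSO and at 0.922, 0.693 and 0.699 RPKM in FP54 libraries. These ranges overlap, and the lower mean with FP54 rested on DMSO replicate 2: the log2 difference was -0.32 over all libraries and 0.061 without it. DMSO-treated NB4 cells, DMSO-treated MOLM-13 cells and FP54-treated MOLM-13 cells all overlapped in THBS1 level, and FP54-treated NB4 cells alone stood apart.

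**Figure D1:**
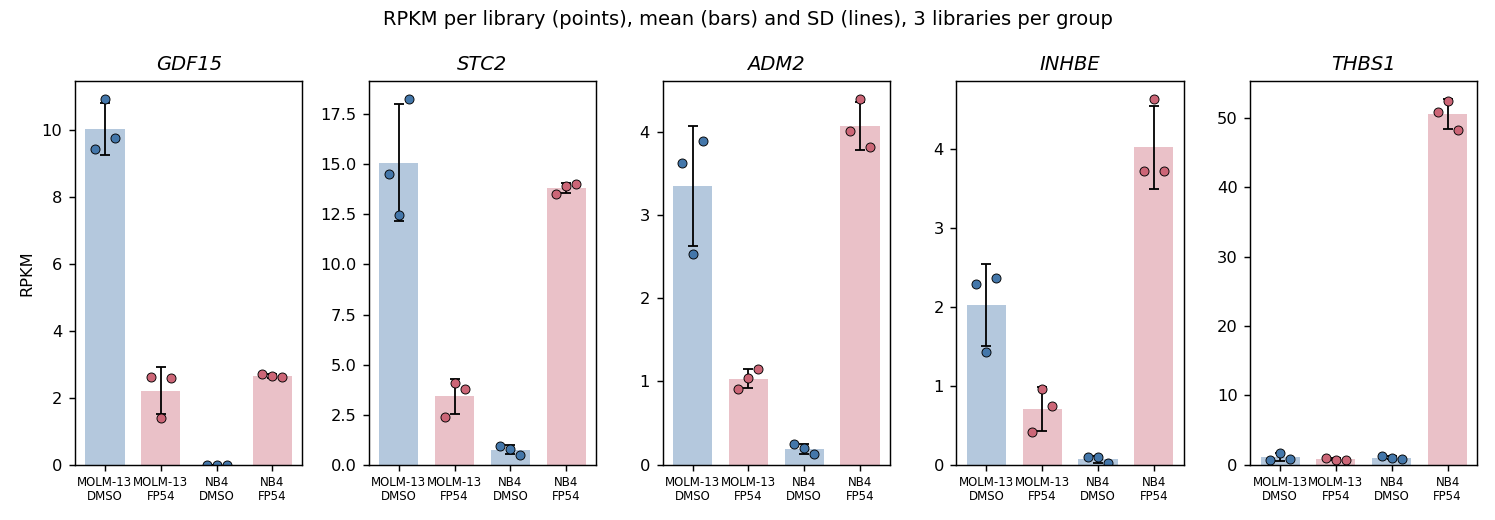
RPKM (vertical axes, 1 scale per gene, from 0) of the 5 secreted factors in each library (points), with bars at the mean and lines at ± SD of 3 libraries, for DMSO (blue) and FP54 (red) in MOLM-13 and NB4 cells. GDF15, STC2, ADM2 and INHBE are lower with FP54 in MOLM-13 cells and higher with FP54 in NB4 cells, where GDF15 reaches only 2.60 to 2.71 RPKM, and THBS1 is high in FP54-treated NB4 cells alone, at 48.3 to 52.5 RPKM.

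Ranks among the 5 depend on the scale for genes near 0 with DMSO. On the log2(RPKM + 0.1) scale, the NB4 differences of FP54 minus DMSO were 5.59 for THBS1, 4.78 for GDF15, 4.65 for INHBE, 4.09 for STC2 and 3.87 for ADM2. They were the 2nd, 3rd, 5th, 11th and 14th highest of 9853 genes with a mean of at least 1 RPKM over the 6 NB4 libraries. All 5 genes reached that mean only through the FP54 libraries. In MOLM-13 cells the differences were -2.19 for GDF15, -2.13 for STC2, -1.59 for ADM2 and -1.44 for INHBE, the 10th, 12th, 46th and 81st lowest of 9710 genes, while THBS1 stayed under the mean of 1 RPKM. The median difference of the 5 was 4.65 in NB4 and -1.59 in MOLM-13 cells, where it includes THBS1, which was not tested there. Over all tested genes the medians were 0.07 and 0.003. Nothing is read from the ranks or from this gap, because the genes were chosen on these differences. Adding 0.1 RPKM understates the difference of genes near 0: the GDF15 difference was 1.87 with 1 RPKM added and 8.06 with 0.01 RPKM added. With 0.01 RPKM added, GDF15 and INHBE (5.96) were above THBS1 (5.72).

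The NB4 differences kept their sign under other scalings. With median-ratio scaling they lay between 3.70 and 5.41, with quantile normalization between 3.25 and 5.42, and after subtraction of each library's olfactory receptor mean between 3.86 and 5.60. Leaving out any 1 NB4 library gave 3.69 to 5.76 over the 5 genes. Leaving out any 1 MOLM-13 library left GDF15 between -2.33 and -1.90, STC2 between -2.28 and -1.90, ADM2 between -1.77 and -1.47 and INHBE between -1.67 and -1.14.

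**Figure D2:**
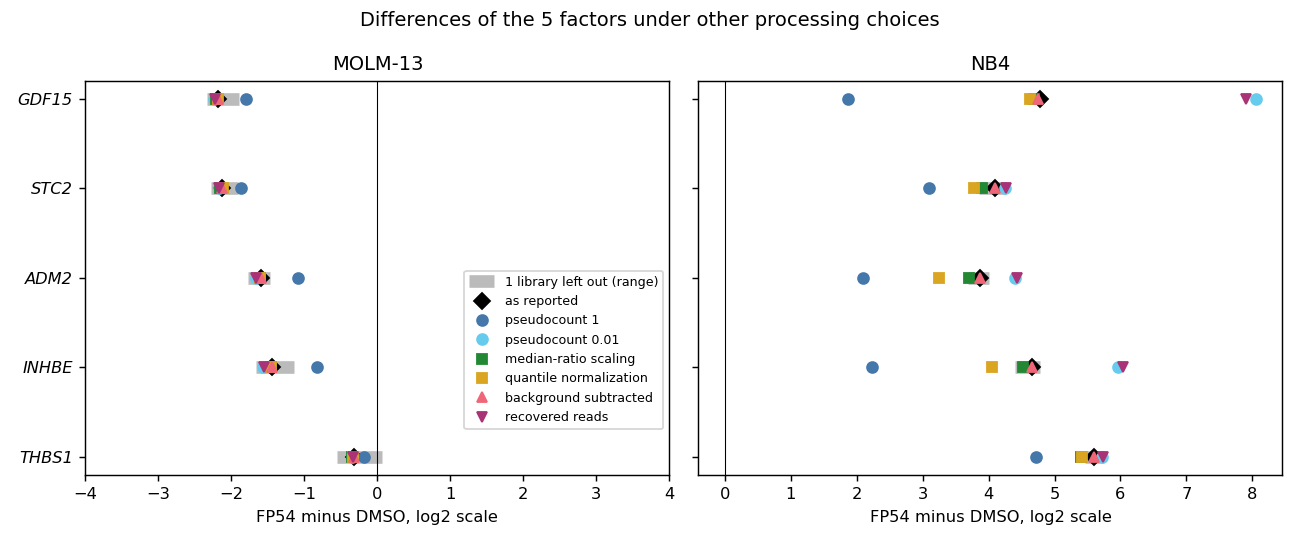
FP54 minus DMSO on the log2 scale (horizontal axis) for each factor in MOLM-13 (left) and NB4 (right) cells, as reported (black diamond), under 6 other processing choices (colored symbols) and with 1 library left out (grey range). All NB4 values are above 0 and shift mainly with the pseudocount, and in MOLM-13 cells the THBS1 range alone reaches 0.

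Markers of other cell types moved too. The summed RPKM of 8 megakaryocyte and platelet markers was 1.64 to 2.51 in NB4 DMSO and 14.0 to 15.3 in NB4 FP54 libraries, of which ITGA2B, the platelet integrin αIIb, made up 1.59 to 2.47 and 13.8 to 15.2 RPKM, while the platelet granule genes PF4 and PPBP and the receptor subunit GP9 were listed at 0 in all 6. In MOLM-13 cells this sum was 0.342 to 0.414 with DMSO and 0.507 to 0.791 with FP54. A sum over 9 fibroblast and endothelial markers was 2.14 to 2.77 and 5.63 to 7.21 RPKM in NB4 cells and 26.0 to 29.4 and 41.7 to 44.0 RPKM in MOLM-13 cells, with only PECAM1 at a mean of 1 RPKM or more. A sum over 9 erythroid and lymphoid markers was 7.94 to 9.64 and 13.3 to 13.9 RPKM in NB4 cells and 6.34 to 7.88 and 6.74 to 7.58 RPKM in MOLM-13 cells. What part these had in the levels of the 5 factors was not tested.

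The closest kin of the factors gave a mixed picture. In a list of 37 relatives (TGF-β family ligands, STC1, calcitonin family peptides and thrombospondins), a gene was called where limma gave a p under 0.01 with a fold change of 0.5 or more in either direction on the log2 scale. Of 8 relatives tested in NB4 cells, 5 were called higher and 1 lower, against 18.6% and 10.7% of all tested genes, and of 9 tested in MOLM-13 cells, 1 was called higher and 3 lower, against 9.3% and 9.04%. The share of all NB4 calls that were higher was 63.6%, and 37.1% with median-ratio scaling, under which 3 relatives were called higher and 1 lower in NB4 cells.

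The other activin subunits were not alike. INHBA, which forms activin A, was at 22.2, 11.9 and 23.7 RPKM in MOLM-13 DMSO and at 2.00, 4.66 and 3.78 RPKM in FP54 libraries, a log2 fold change of -2.45 ± 0.32 (SE, adjusted p = 0.0023). In NB4 cells INHBA did not exceed 0.656 RPKM. INHBC, which adjoins INHBE at a distance of 261 bases, did not exceed 0.0805 RPKM in any library, and INHBB and the inhibin α subunit INHA did not exceed 0.456 and 0.263 RPKM.

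STC1, the paralog of STC2, stayed under 0.39 RPKM in MOLM-13 cells and went from 0.047 to 0.091 RPKM with DMSO to 1.04 to 1.10 RPKM with FP54 in NB4 cells, under the mean needed for a test. ADM, adrenomedullin, rose in NB4 cells from 2.94 ± 0.51 to 11.1 ± 2.4 RPKM (SD, n = 3; log2 fold change 1.87 ± 0.17, SE, adjusted p = 1.29e-05). In MOLM-13 cells it was at 26.9 ± 2.9 and 29.4 ± 4.7 RPKM, with no call (adjusted p = 0.617), and the ADM changes differed between the lines (1.75 on the log2 scale, adjusted p = 0.000285). ADM5, a gene related to adrenomedullin, fell in MOLM-13 cells (-1.70 ± 0.29, adjusted p = 0.00573) and was called higher in NB4 cells (0.57 ± 0.17, adjusted p = 0.0150). The NB4 call was lost without any of DMSO replicates 1 and 3 and FP54 replicate 1, at 0.42 to 0.58, and with median-ratio scaling, at 0.38.

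Among other thrombospondins, THBS3 rose in MOLM-13 cells from 4.11 ± 0.44 to 8.96 ± 1.91 RPKM (1.09 ± 0.18, adjusted p = 0.00518). In NB4 cells THBS3 went from 0.604 ± 0.084 to 1.34 ± 0.17 RPKM and was not tested. THBS4 had no call in MOLM-13 cells (adjusted p = 0.160), and THBS2 and COMP did not exceed 0.0638 and 0.167 RPKM.

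The remaining called relatives were BMP1, a secreted metalloprotease that bears the name of the family without being a ligand of it, and TGF-β family ligands. BMP1 rose in NB4 cells (0.68 ± 0.15, adjusted p = 0.00314). BMP2 fell in NB4 cells (-2.10 ± 0.12, adjusted p = 4.08e-07), where BMP8B (1.29 ± 0.14, adjusted p = 3.16e-05) and TGFB1 (0.71 ± 0.11, adjusted p = 0.000368) rose. GDF11 fell in MOLM-13 cells (-0.76 ± 0.23, adjusted p = 0.0444), a call lost without any of DMSO replicates 1 and 3 and FP54 replicates 1 and 3, at -0.83 to -0.53.

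Receptors particular to GDF15 and ADM2 were at or near 0. GFRAL, the GDF15 receptor, was at 0 in all MOLM-13 and all NB4 DMSO libraries and at 0.0400 to 0.148 RPKM in NB4 FP54 libraries, where the olfactory receptor mean was 0.0496 to 0.0549 RPKM. Its co-receptor RET was expressed, at 1.24 to 2.83 RPKM in MOLM-13 and at 13.2 to 15.0 RPKM in NB4 libraries, without a call in either line (adjusted p = 0.274 and 0.889). The calcitonin receptor family members CALCRL and CALCR, which bind ADM2 with RAMP proteins, did not exceed 0.0209 and 0.179 RPKM, and PAPPA, the protease that STC2 inhibits, did not exceed 0.0964 RPKM.

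Some activin receptors and thrombospondin partners were present, while the activin receptor ACVR2A and the integrin subunit ITGB3 did not exceed 0.364 and 0.0881 RPKM. ACVR1B, an activin type I receptor, rose in NB4 cells from 8.03 ± 1.25 to 14.1 ± 1.1 RPKM (0.81 ± 0.12, adjusted p = 0.000350) and lay between 2.88 and 5.10 RPKM in MOLM-13 cells with no call. ACVR2B had no call in either line. CD47 was called higher in MOLM-13 cells (0.51 ± 0.14, adjusted p = 0.0325), a call lost without any of the 3 DMSO replicates and FP54 replicates 1 and 3, at 0.41 to 0.54. It missed the fold change limit in NB4 cells (0.40 ± 0.10). CD36 did not exceed 3.22 RPKM. The integrin subunits ITGAV (0.78 ± 0.17, adjusted p = 0.00313) and ITGB1 (0.71 ± 0.14, adjusted p = 0.00160) rose in NB4 cells.

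In all, 36 receptors and binding partners were listed. Of the 16 tested in NB4 cells, 5 were called higher and 2 lower, against 18.6% and 10.7% of all tested genes. With median-ratio scaling these counts were 3 and 2. Of the 17 tested in MOLM-13 cells, 3 were called higher and 0 lower, against 9.3% and 9.04%. The falls in NB4 cells were IGFBP4, an insulin-like growth factor carrier that PAPPA cleaves (-0.95 ± 0.09, adjusted p = 1.82e-05), and CALR, calreticulin (-0.57 ± 0.11, adjusted p = 0.00194). The CALR call was lost without DMSO replicate 2, at -0.45. The follistatin-like activin antagonist FSTL3 rose in MOLM-13 cells (1.45 ± 0.24, adjusted p = 0.00493), as did the TGF-β receptor TGFBR2 (0.94 ± 0.16, adjusted p = 0.00606).

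The SMAD proteins and the feedback genes that TGF-β family ligands induce were called higher in 8 of 13 genes tested in NB4 cells and lower in 0. Of all tested NB4 genes, 18.6% were called higher and 10.7% lower. With median-ratio scaling 5 of the list were called higher, and with a mean of at least 5 RPKM 2. Among the 8 were ID2, an inhibitor of basic helix-loop-helix factors (1.61 ± 0.15, adjusted p = 1.20e-05), and SKIL, a SMAD corepressor (1.23 ± 0.16, adjusted p = 0.000142). In MOLM-13 cells, 1 of 14 was called higher and 0 lower, against 9.3% and 9.04% of all tested genes. That gene was ID2 (0.70 ± 0.21, adjusted p = 0.0419), whose call was lost without any of DMSO replicates 2 and 3 and FP54 replicates 1 and 3, at 0.55 to 0.73.

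Most genes of the integrated stress response rose in NB4 cells. In NB4 cells, 23 of 24 tested were called higher and 0 lower (median log2 fold change 1.57), with ATF4 mRNA itself not called at 0.35 ± 0.13. The 3 with the largest rises were VLDLR, a lipoprotein receptor (3.39 ± 0.13, adjusted p = 5.03e-08), ATF5, a transcription factor related to ATF4 (3.36 ± 0.09, adjusted p = 1.18e-08), and SLC7A11, the cystine transporter (3.02 ± 0.16, adjusted p = 3.17e-07). CHAC1 (0.298 RPKM with DMSO) and ALDH1L2 (0.825 RPKM) reached the mean of 1 RPKM only through the FP54 libraries. With a mean of at least 5 RPKM, 18 were called higher and 0 lower. Over all tested genes, 18.6% were called higher and 10.7% lower in NB4, and 9.3% higher and 9.04% lower in MOLM-13 cells. In MOLM-13 cells, 8 of 25 were called lower and 1 higher (median -0.37), and without FP54 replicate 1 it was 5 and 1. PSAT1, of serine synthesis, fell (-1.43 ± 0.31, adjusted p = 0.0132), as did the pseudokinase TRIB3 (-1.11 ± 0.16, adjusted p = 0.00339) and ATF3 (-1.06 ± 0.16, adjusted p = 0.00385), and the stress cofactor NUPR1 rose (1.15 ± 0.26, adjusted p = 0.0149). The changes of 23 of 24 genes differed between the lines at an adjusted p below 0.05, against 14.2% of all 8849 genes tested in both, and each was higher in NB4. Of these, 8 were called in opposite directions in the lines, which nearly settled their outcome beforehand. The list was also chosen with earlier results of these data known, so the count is a description.

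**Figure D3:**
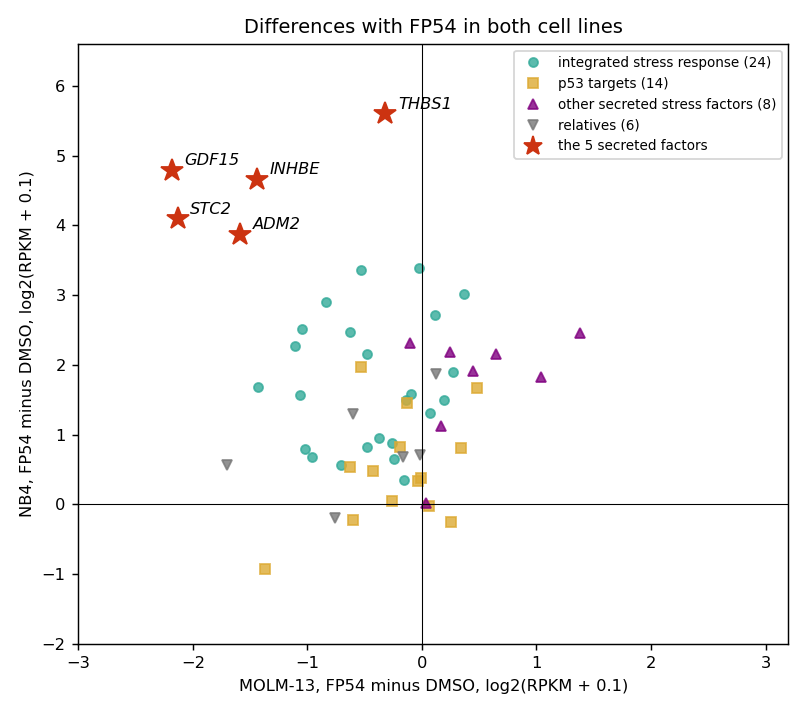
FP54 minus DMSO on the log2(RPKM + 0.1) scale in MOLM-13 (horizontal) and NB4 (vertical) cells for the 5 factors (red stars) and for genes of 4 lists tested in both lines, with the number of genes in the key. GDF15, STC2, ADM2 and INHBE sit at the upper left and THBS1 at the top, just left of 0, and most integrated stress response genes sit above 0 in NB4 cells and near or below 0 in MOLM-13 cells.

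The p53 targets had calls in both directions over the lines. The shares of all tested genes called higher and lower were 18.6% and 10.7% in NB4 and 9.3% and 9.04% in MOLM-13 cells. In NB4 cells, 6 of 14 tested were called higher and 1 lower, led by the cell cycle inhibitor CDKN1A (1.97 ± 0.16, adjusted p = 5.36e-06), the antiproliferative BTG2 (1.67 ± 0.10, adjusted p = 8.82e-07) and the TRAIL receptor TNFRSF10B (1.45 ± 0.09, adjusted p = 1.31e-06). AEN, an apoptosis nuclease, was the one that fell (-0.92 ± 0.10, adjusted p = 3.87e-05). In MOLM-13 cells, 0 of 18 were called higher and 5 lower, among them AEN (-1.37 ± 0.22, adjusted p = 0.00466), PLK3, a stress kinase (-0.63 ± 0.18, adjusted p = 0.0386), and MDM2, the ubiquitin ligase for p53 (-0.60 ± 0.17, adjusted p = 0.0325). The count of 5 became 1 without DMSO replicate 3 and 3 without any of DMSO replicates 1 and 2 and FP54 replicate 1. The MDM2 call was lost without any of DMSO replicates 2 and 3 and FP54 replicate 1, at -0.59 to -0.43, and the PLK3 call without any of DMSO replicates 1 and 3 and FP54 replicates 1 and 2, at -0.65 to -0.54.

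Among other secreted factors of stress and injury, the genes called at a mean of at least 1 RPKM were higher in both lines. In NB4 cells, 9 of 10 tested were called higher and 0 lower, led by the growth factor TGFA (2.53 ± 0.13, adjusted p = 2.70e-07), the chemokine CCL2 (2.46 ± 0.10, adjusted p = 9.40e-08) and the lipase inhibitor ANGPTL4 (2.31 ± 0.21, adjusted p = 1.05e-05). Over all tested NB4 genes, 18.6% were called higher and 10.7% lower. TGFA (0.716 RPKM with DMSO), ANGPTL4 (0.398 RPKM) and SERPINE2 (0.305 RPKM) reached the mean of 1 RPKM only through the FP54 libraries, which favours higher calls. With a mean of at least 5 RPKM, 3 were called higher and 0 lower. In MOLM-13 cells, 3 of 9 were called higher and 0 lower: CCL2 (1.38 ± 0.26, adjusted p = 0.00864), osteopontin, SPP1 (1.04 ± 0.23, adjusted p = 0.0135), and interleukin-1β, IL1B (0.65 ± 0.18, adjusted p = 0.0338). The IL1B call was lost without any of DMSO replicates 1 and 3 and FP54 replicates 1 and 3, at 0.52 to 0.64, which left 2 of the 3 called. Over all tested MOLM-13 genes, 9.3% were called higher and 9.04% lower. Without a filter, 4 genes of this list were called higher and 2 lower in MOLM-13 cells.

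The enzymes that process secreted proteins mostly had no call. In NB4 cells, 2 of 14 tested were called higher and 1 lower, against 18.6% and 10.7% of all tested genes. In MOLM-13 cells 0 of 13 were called higher and 1 lower, against 9.3% and 9.04%. PAM, the enzyme that amidates peptide hormones such as ADM2, rose in NB4 cells from 1.89 ± 0.27 to 6.93 ± 1.10 RPKM (1.82 ± 0.14, adjusted p = 5.07e-06) and had no call in MOLM-13 cells at 6.61 ± 0.50 and 5.38 ± 0.53 RPKM. FURIN, the convertase that cleaves GDF15 and activin precursors, rose in NB4 cells (0.58 ± 0.09, adjusted p = 0.000534), a call lost with median-ratio scaling at 0.38. The translocon subunit SEC61B fell in NB4 cells (-0.55 ± 0.10, adjusted p = 0.000843), a call lost without FP54 replicate 3 at -0.49. SEC11C, of the signal peptidase, fell in MOLM-13 cells (-0.53 ± 0.17, adjusted p = 0.0475), a call lost without any of DMSO replicates 1 and 3 and FP54 replicates 1 and 3, at -0.52 to -0.44.

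**Figure D4:**
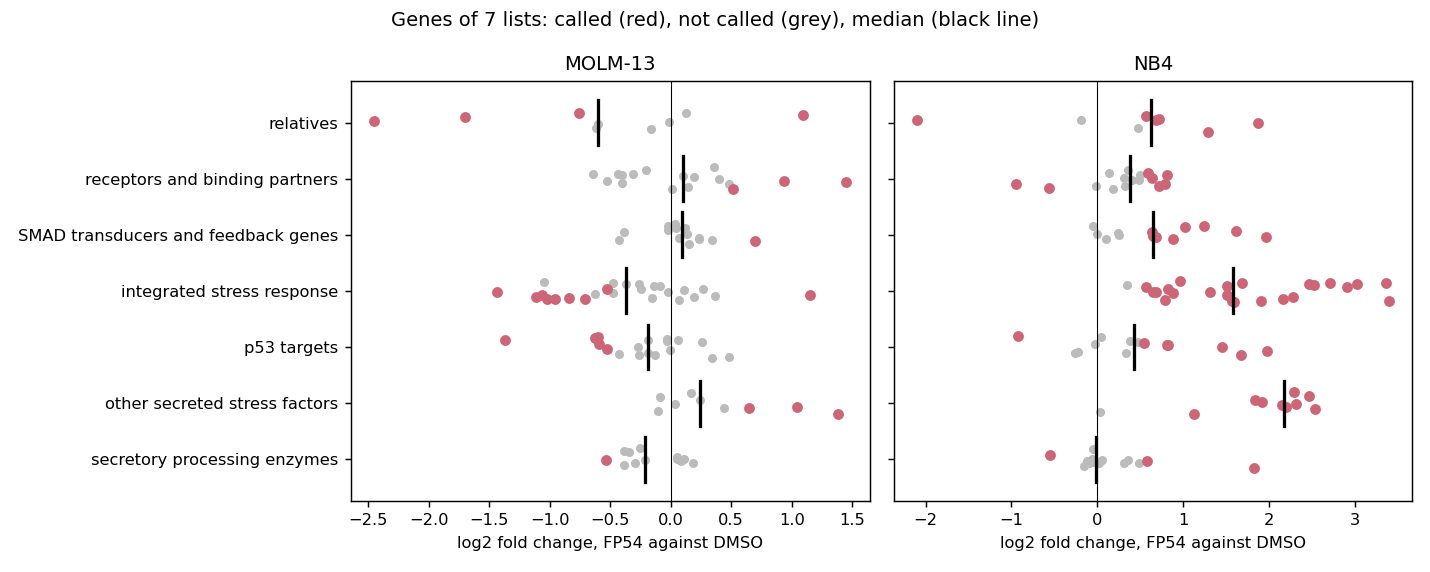
Log2 fold change of FP54 against DMSO (horizontal axis) for each tested gene of 7 lists in MOLM-13 (left) and NB4 (right) cells, called genes in red, genes without a call in grey and the list median as a black line. The integrated stress response list has its median at 1.57 in NB4 and -0.37 in MOLM-13 cells, and the other secreted stress factors have theirs above 0 in both.

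Few of the genes nearest to the factors on the chromosomes were expressed enough to be tested. Of 10 protein-coding neighbours, 1 on each side, 4 were tested in MOLM-13 and 3 in NB4 cells. In each line 1 was called higher and 0 lower, where 9.3% and 18.6% of all tested genes were called higher. These were LRRC25 in MOLM-13 cells (0.91 on the log2 scale, adjusted p = 0.0196), which lies 1961 bases from GDF15, and PGPEP1 in NB4 cells (1.20, adjusted p = 6.90e-05), 4781 bases on its other side. MIOX, 344 bases from ADM2, and GLI1, 505 bases from INHBE, had group means of at most 0.372 and 0.244 RPKM.

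The 5 factors, chosen for a like pattern, had near-parallel values across libraries. After centring log2(RPKM + 0.1) on each line's mean, Pearson's r between pairs over the 12 libraries lay between 0.884 (STC2 and THBS1) and 0.992 (STC2 and ADM2), and r is given as a description because the same 2 treatment differences drive every pair. Among 10709 genes with a mean of at least 1 RPKM in either line, TRIB3 was the nearest to GDF15 (r = 0.981) and STC2 (r = 0.989) and the 2nd nearest to ADM2 (r = 0.995). TRIB3 went from 16.5 to 79.6 RPKM in NB4 and from 17.0 to 7.76 RPKM in MOLM-13 cells. For ADM2 the nearest was HDC, histidine decarboxylase (r = 0.997), and for INHBE it was AARS1, alanyl-tRNA synthetase (r = 0.993), followed by SEL1L3 (r = 0.992) and RHEX (r = 0.991).

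The genes next to GDF15 and STC2 in this order were PDZD7 (r = 0.981) and SERPINE2 (r = 0.981) for GDF15, and KIF21B (r = 0.987) and CDC42EP1 (r = 0.987) for STC2. CDC42EP1 was also the 3rd nearest to ADM2 (r = 0.988). The nearest to THBS1 were P2RX7, an ATP-gated channel (r = 0.994), TOX2 (r = 0.991) and TNFRSF10B (r = 0.991), each higher with FP54 in NB4 cells and within 0.14 of 0 on the log2 scale in MOLM-13 cells.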

How the data were processed

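RNA-seq libraries of both lines were analysed. The 10 m6A-seq and polysome-seq samples were not used here. The authors trimmed reads with Cutadapt 4.8, removed duplicates, aligned to hg38 with STAR 2.7.11b, counted protein-coding genes with featureCounts 2.0.3 and deposited RPKM per library. The cell line of each table was taken from its name. Multiplying RPKM by the union exon length of GENCODE gave 98.2% to 98.9% whole numbers (within 0.02) among values under 50 reads, which gave depth and reads per gene. In each line log2(RPKM + 0.1) was fitted in R 4.3.3 with limma 3.58.1 (eBayes with trend) for genes with a mean of at least 1 RPKM, with Benjamini-Hochberg adjustment over all tested genes. Line differences were tested as an interaction over the 12 libraries. On simulated data, 97.5% (MOLM-13, 9685 genes) and 99.5% (NB4, 9785 genes) of 200 genes given a log2 change of 1.5 were recovered, with 60 and 10 false calls. Members, lists and tests were chosen with earlier results of these data known. From each list and line the called genes with the largest fold change are named, up to 3 in each direction, and for each member the 3 genes with the highest r. A gene that this rule would name is not reported here. Receptors, relatives and neighbours without a call were named for their role after their values were seen. Sequences come from RefSeq. Figures were drawn with matplotlib 3.10.9.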

Additional observations from a re-analysis of the deposited data

Results flagged for a closer look

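Effects in opposite directions in the lines were seen for 4 of the 5 factors. On the log2 scale the difference between treatments was higher in NB4 than in MOLM-13 cells by 6.97 for GDF15, 6.22 for STC2, 5.45 for ADM2 and 6.09 for INHBE, and every NB4 library with FP54 lay above its controls where every MOLM-13 library lay below. These differences were not tested, since the genes were chosen on them.

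For list genes called in opposite directions, limma's interaction estimate is given as a size only. These genes were picked by their calls on the same libraries, so the outcome of that test was nearly settled beforehand. The NB4 minus MOLM-13 difference in log2 fold change was 3.89 for ATF5, 3.74 for ALDH1L2, 3.38 for TRIB3, 3.12 for PSAT1, 2.63 for ATF3, 1.81 for PHGDH, 1.64 for CTH and 1.27 for CEBPG, all of the integrated stress response list. It was 2.50 for CDKN1A and 1.17 for PLK3 among the p53 targets and 2.27 for ADM5 among the relatives. With 1 library left out, ATF3, TRIB3, PSAT1, PHGDH and CTH kept both calls. The MOLM-13 call was lost for CDKN1A without any of the 3 DMSO replicates and FP54 replicates 2 and 3 (-0.57 to -0.43), for PLK3 without any of DMSO replicates 1 and 3 and FP54 replicates 1 and 2 (-0.65 to -0.54), and for CEBPG without any of DMSO replicates 1 and 3 and FP54 replicate 1 (-0.64 to -0.58). It was also lost for ALDH1L2 without DMSO replicate 1 or FP54 replicate 1 (-0.69 to -0.57) and for ATF5 without DMSO replicate 3 or FP54 replicate 1 (-0.48 to -0.47). The NB4 call was lost for ADM5 without any of DMSO replicates 1 and 3 and FP54 replicate 1 (0.42 to 0.58), for CEBPG without DMSO replicate 2 or FP54 replicate 2 (0.48 to 0.49) and for PLK3 without DMSO replicate 3 (0.46). Median-ratio scaling ended the NB4 calls of ADM5 (0.38), CEBPG (0.36), CTH (0.49) and PLK3 (0.35).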

How the results depend on the processing

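The counts of 5 factors higher in NB4 and 4 lower in MOLM-13 cells, without overlap, held in each alternative where they were taken. Leaving out a library or changing the pseudocount could not lower these counts, so only the other scalings and the recovered reads could have. The genes were also chosen for this separation, so nothing is read from the counts. The sign of each factor's difference held except for THBS1 in MOLM-13 cells, at 0.061 without DMSO replicate 2 (-0.55 to 0.061 over all fits with 1 library left out). A mean of at least 5 RPKM left 1069 calls in MOLM-13 cells (509 higher, 560 lower), 1627 in NB4 cells (789 higher) and 633 line differences, in place of 1781, 2884 and 1258. Without a filter there were 6059 calls in NB4 cells (4967 higher) and 3964 line differences. Median-ratio scaling gave 1184 higher and 2009 lower calls in NB4 cells, in place of 1834 and 1050, and quantile normalization 48.4% of calls higher. Over fits with 1 library left out, calls ranged from 1038 to 2143 in MOLM-13 cells (552 to 1130 higher, 472 to 1222 lower), and line differences from 628 to 1413 with 1 number left out in both lines. The lowest counts came without MOLM-13 FP54 replicate 1 (1038), without DMSO replicate 3 (1054) and, for line differences, without DMSO replicate 3 (628) and FP54 replicate 1 (732). The cause of these shifts was not tested beyond the number of genes or libraries used.

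Same-numbered libraries did not deviate together (r from -0.26 to -0.06 in MOLM-13 and from -0.14 to 0.12 in NB4 cells). A replicate block gave 1697 calls in MOLM-13 cells, 2912 in NB4 cells and 899 line differences.

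Called higher in NB4 cells, the list counts ranged over the alternatives from 2 to 14 for relatives, 3 to 17 for receptors and partners, 2 to 10 for SMAD genes, 18 to 25 for the integrated stress response, 4 to 8 for p53 targets, 3 to 17 for other secreted factors and 1 to 4 for processing enzymes. Depth limits GDF15 and INHBE most, with 17 reads in the shallowest MOLM-13 FP54 library and at most 6 in DMSO-treated NB4 cells.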
